A study of Homo sapiens with 6 samples.

Results

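The PI3K, AKT, mTOR and FOXO core was taken as 8 genes given by symbol: PIK3CA, PIK3CB, PIK3CD, PIK3R1, AKT1, AKT2, MTOR and FOXO3. All 8 were found among the 58440 gene identifiers of the count table, and all 8 were among the 18380 genes with enough counts to test. The cells were K562, an established line of chronic myeloid leukaemia driven by BCR-ABL1, and RNA sequencing set 3 libraries from cells made to over-express IRAIN against 3 controls. IRAIN is a noncoding RNA on the strand opposite to the neighbouring growth factor receptor gene IGF1R, and as annotated here (chromosome 15, 98646951 to 98647371, minus strand) it lies just outside that gene (98648539 to 98964530, plus strand); the study was about drug resistance. The labels call the controls wild type while the columns of the table call them vector, so it is not known here whether they carried an empty vector. The promoter driving IRAIN and the number of clones are likewise unstated, and no drug treatment is named in the labels.

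Class I PI3K enzymes pair a catalytic subunit with a regulatory one and, below receptors and kinases such as BCR-ABL1, make a membrane lipid that recruits the kinase AKT. AKT restrains the TSC complex and so releases the mTORC1 kinase complex, which drives protein synthesis and growth. AKT also phosphorylates FOXO transcription factors and so keeps them out of the nucleus, and much of this control acts on proteins, which RNA levels do not show. FOXO factors induce genes for growth arrest, death, stress defence and receptor feedback, and FOXO3 has been reported to raise PIK3CA expression in drug-resistant K562 cells.

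Library totals lay between 11558983 and 13303139 counts in genes. IRAIN counts came to 297 with over-expression and to 1 in the controls, each over 3 libraries. Of the K562 markers, all 10 were detected, summing to 1577 to 1600 CPM (counts scaled to library size with trimmed mean of M-values factors, TMM) in the over-expression libraries and 1534 to 1564 CPM in the controls, with HBE1 lowest. CDKN2A and MTAP, deleted in K562, were at 0 in all libraries. Summed markers stood at 1.22 to 1.97 against 2.43 to 2.90 CPM for T cells, 34.4 to 39.7 against 40.3 to 40.8 for fibroblasts and 35.1 to 40.6 against 35.1 to 39.3 for epithelium, and their part in the results was not tested. These sums came mostly from CD3D, COL1A2 and EPCAM. No label says whether replicate libraries stem from different cultures, and the p-values rest on a spread between libraries that could be technical only.

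FOXO3 RNA rose 1.22-fold and PIK3CD RNA 1.23-fold, AKT1 RNA fell 1.16-fold and PIK3CB RNA 1.07-fold, while PIK3CA, PIK3R1, AKT2 and MTOR did not pass the test. In bulk RNA, a change in some of the cells and a smaller change in every cell cannot be told apart. By the quasi-likelihood test of edgeR (adjusted p under 0.05), 2 of the 8 genes rose and 2 fell, where 20.3% of all tested genes rose and 18.9% fell. Those 4 of 8 stood beside 39.3% of all tested genes called in either direction, and the median log2 fold change of the core, 0.030, beside -0.001 over all genes. Tested against a change of 1.5-fold, 0 of the 8 passed (adjusted p = 1 for FOXO3, PIK3CD, AKT1 and PIK3CB), beside 3.75% of all tested genes. DESeq2 called the same 4 of 8, beside 23.5% of all genes. A correction of each library for GC content and exon length left 2 risen but gave 4 fallen core genes, beside 22.7% of all genes fallen and 40.7% called.

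**Figure D1:**
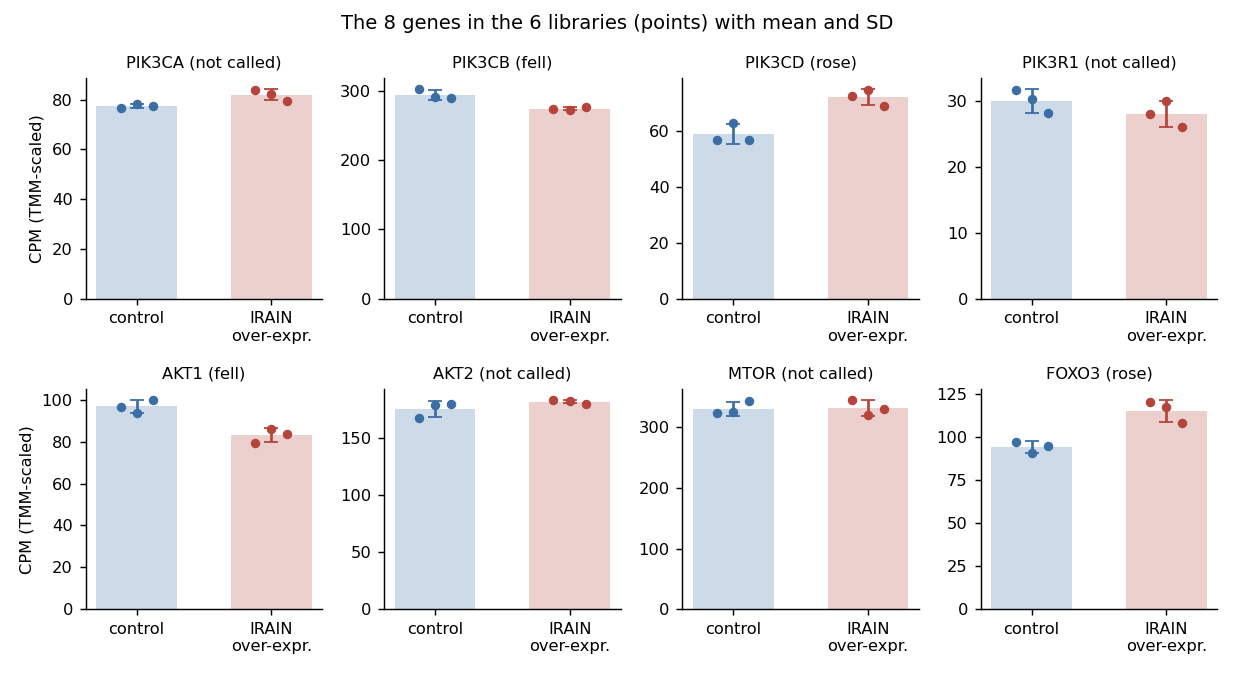
Level of each of the 8 genes (y axis, TMM-scaled CPM) in the 3 control and 3 over-expression libraries; points are libraries, bars are means and error bars are SD. The groups are apart for FOXO3, PIK3CD, AKT1 and PIK3CB, narrowly apart for PIK3CA and AKT2, and overlap for PIK3R1 and MTOR.

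Among the catalytic subunits, PIK3CD (ENSG00000171608.15, GRCh38 chromosome 1, 9651732 to 9729114, plus strand) encodes the delta form, which is enriched in white blood cells. With over-expression it stood at 72.7, 74.9 and 69.2 CPM (libraries 1, 2 and 3, the order used throughout), compared with 56.8, 62.9 and 56.8 CPM in control libraries 1, 2 and 3. Every over-expression library lay above every control, and control 2 came nearest. The fitted log2 fold change was 0.29 ± 0.051 (± SE; adjusted p by edgeR = 2.18e-06, n = 3 each). The antisense gene PIK3CD-AS2, which lies inside PIK3CD and shares no exon base with it, rose too, from 4.86 ± 0.36 to 9.19 ± 0.56 CPM (SD, n = 3 each). CLSTN1, whose end meets the end of PIK3CD on the opposite strand over 89 exon bases, rose by 0.39 ± 0.052 on the log2 scale. Within 2 Mb of PIK3CD, 11 of 51 tested genes rose and 6 fell, with a median log2 fold change of 0.006. Over all tested genes, 20.3% rose and 18.9% fell.

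PIK3CB (ENSG00000051382.8, chromosome 3, 138652699 to 138834938, minus strand) encodes the beta form, found in most tissues. Its levels were 274.6, 272.5 and 276.9 CPM with over-expression, against 303.1, 290.9 and 289.3 CPM without. The groups did not overlap, and the gap between them was smaller than the range of the controls. The change came to -0.10 ± 0.030 on the log2 scale (SE; edgeR adjusted p = 0.00558). Without control library 1 the call was lost (-0.080, adjusted p = 0.0651), leaving 1 fallen core gene beside 16.3% of all genes. Of the 31 tested genes within 2 Mb of PIK3CB, 5 rose and 7 fell, beside 20.3% and 18.9% of all tested genes. Their median log2 fold change was -0.14.

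PIK3CA (ENSG00000121879.4, chromosome 3, 179148114 to 179240093, plus strand), the alpha form that is often mutated in solid tumours, stood at 84.1, 82.4 and 79.5 CPM with over-expression, compared with 76.7, 78.1 and 77.4 CPM. Each over-expression library lay above each control, yet the difference, 0.082 ± 0.045 on the log2 scale (SE; 95% interval -0.0072 to 0.17), was not called (edgeR adjusted p = 0.143). Across the core, 6 of 8 genes had groups whose CPM values were fully apart, beside 47.5% of all tested genes. PIK3CA shares 3403 exon bases with KCNMB3 on the opposite strand, which fell by 0.27 ± 0.076 on the log2 scale. The rule for counting reads there is unstated. In the 1 library with strand counts, PIK3CA had 1072 reads on its own strand, more than its strand-ignored count of 1049. KCNMB3 had 402 there, against a strand-ignored count of 286. Some reads assigned by strand were thus left out of the strand-ignored counts of that library, which are the counts tested. Where those reads lay was not examined.

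PIK3R1 (ENSG00000145675.14, chromosome 5, 68215720 to 68301821, plus strand) encodes the main regulatory subunit, which stabilises the catalytic ones and holds them inactive until a receptor or adaptor binds. It stood at 28.03, 29.9 and 26.1 CPM against 31.7, 30.2 and 28.1 CPM. The groups overlapped, and the fitted log2 fold change of -0.10 ± 0.073 (± SE; adjusted p by edgeR = 0.296) had a 95% interval of -0.25 to 0.047, the widest of the 8.

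AKT1 (ENSG00000142208.15, chromosome 14, 104769349 to 104795751, minus strand) encodes the most broadly expressed AKT kinase, tied to survival and growth. AKT1 levels were 79.5, 86.1 and 83.8 CPM under over-expression and 96.5, 93.65 and 99.98 CPM in the control libraries. Every over-expression library lay below every control, by more than the spread within either group. On the log2 scale this was -0.22 ± 0.044 (SE; edgeR adjusted p = 4.12e-05). The value became -0.34 when each library was corrected for GC content and exon length; the longest AKT1 transcript had 62.1% GC, the highest of the 8. AKT1 shares 663 exon bases with the antisense gene AL583722.2, which had 0 counts in the strand-ignored table in all libraries. In the 1 library with strand counts, AL583722.2 had 45 reads on its own strand and 409 on the other. There 1308 reads were assigned on the AKT1 strand, more than the 1096 of its strand-ignored count.

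AKT2 (ENSG00000105221.16, chromosome 19, 40230317 to 40285536, minus strand), the form tied to insulin-driven glucose uptake, stood at 183.0, 182.6 and 179.9 CPM against 167.2, 178.7 and 179.5 CPM. Control library 1 was low and the other controls lay just under the over-expression libraries. The fitted log2 fold change of 0.054 ± 0.035 (± SE; adjusted p by edgeR = 0.225) did not pass, with a 95% interval of -0.015 to 0.12. After the correction for GC content and length it turned to -0.089 and passed (edgeR adjusted p = 0.0193). Of 94 tested genes within 2 Mb of AKT2, 35 rose and 8 fell, beside 20.3% and 18.9% of all tested genes. Their median log2 fold change was 0.12.

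MTOR (ENSG00000198793.12, chromosome 1, 11106535 to 11262507, minus strand), the kinase of both mTOR complexes, stood at 344.5, 319.2 and 329.0 CPM against 322.2, 323.8 and 342.6 CPM. The groups overlapped. Its fitted log2 fold change of 0.0052 ± 0.031 (± SE; adjusted p by edgeR = 0.915) had a 95% interval of -0.056 to 0.067, and the correction for GC content and length turned it to -0.091 (edgeR adjusted p = 0.00831).

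FOXO3 (ENSG00000118689.14, chromosome 6, 108559835 to 108684774, plus strand), the transcription factor at the end of the AKT branch, had the lowest p of the 8. Levels of 120.2, 117.3 and 107.8 CPM with over-expression compared with 97.3, 90.65 and 94.4 CPM in the control libraries. The groups were apart, with over-expression library 3 nearest to the controls. The fitted log2 fold change was 0.29 ± 0.043 (± SE; adjusted p by edgeR = 6.92e-08). Its pseudogene FOXO3B on chromosome 17, with which reads could be shared, totalled 148 and 138 counts in the respective groups and was not called. Of 29 tested genes within 2 Mb of FOXO3, 4 rose and 5 fell, beside 20.3% and 18.9% of all tested genes. Their median log2 fold change was -0.088, opposite in sign to FOXO3.

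**Figure D2:**
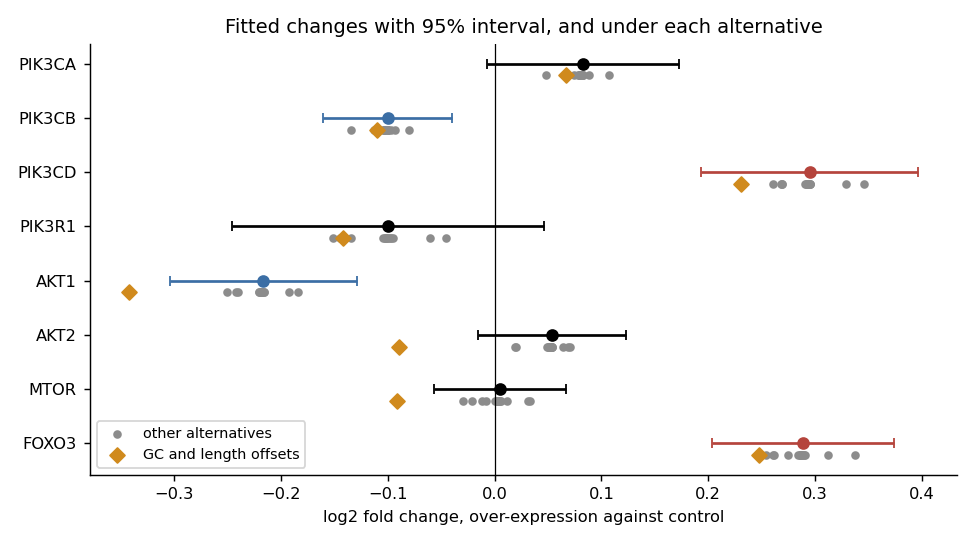
Fitted log2 fold change of each gene, over-expression against control (x axis), with its 95% interval (large points; red rose, blue fell, black not called) and its value under each alternative processing (small grey points; orange diamonds, GC and length correction). Under that correction AKT2 and MTOR change sign, to -0.089 and -0.091, and AKT1 lies at -0.34.

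The library with strand counts placed 4.87% of PIK3CB reads and 20.1% of PIK3CA reads on the strand opposite to the gene, the lowest and highest shares of the 8, beside 15.1% of all its gene-assigned reads.

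The sequences upstream of RefSeq starts of the genes that passed the test are shown because they differ in composition, and that of PIK3CA because it holds a FOXO element. Each is the 250 bases before the outermost RefSeq start (GRCh38.p14), which may not be the start used in K562. GENCODE starts some of these genes further out: 243 of the 250 bases of the PIK3CA window lie inside the annotated gene, as do 10 for PIK3CB and 3 for AKT1, against 0 for PIK3CD and FOXO3. PIK3CD lies at chr1:9651481-9651730 (plus strand), FOXO3 at chr6:108559575-108559824 (plus), PIK3CB at chr3:138834929-138835178 (minus), AKT1 at chr14:104795749-104795998 (minus) and PIK3CA at chr3:179148107-179148356 (plus). Capitals mark matches on either strand to the GC box GGGCGG and, in PIK3CA, also to the FOXO element GTAAACA.
FOXO3: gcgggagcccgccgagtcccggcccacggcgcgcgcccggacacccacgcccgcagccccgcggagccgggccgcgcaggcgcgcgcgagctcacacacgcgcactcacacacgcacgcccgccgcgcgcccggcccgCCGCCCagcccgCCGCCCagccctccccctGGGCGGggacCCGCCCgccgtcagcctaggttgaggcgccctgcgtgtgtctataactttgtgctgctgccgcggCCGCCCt
PIK3CD: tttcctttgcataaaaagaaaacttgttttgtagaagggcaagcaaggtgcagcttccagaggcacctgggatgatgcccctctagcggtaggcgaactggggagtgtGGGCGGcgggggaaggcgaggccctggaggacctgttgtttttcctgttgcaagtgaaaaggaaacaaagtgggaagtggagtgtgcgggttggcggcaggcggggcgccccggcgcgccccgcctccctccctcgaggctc
AKT1: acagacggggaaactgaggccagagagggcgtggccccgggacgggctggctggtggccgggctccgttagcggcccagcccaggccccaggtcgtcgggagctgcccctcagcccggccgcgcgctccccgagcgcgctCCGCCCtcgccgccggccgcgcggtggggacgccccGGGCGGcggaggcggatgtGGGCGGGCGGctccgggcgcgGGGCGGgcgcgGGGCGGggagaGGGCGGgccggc
PIK3CB: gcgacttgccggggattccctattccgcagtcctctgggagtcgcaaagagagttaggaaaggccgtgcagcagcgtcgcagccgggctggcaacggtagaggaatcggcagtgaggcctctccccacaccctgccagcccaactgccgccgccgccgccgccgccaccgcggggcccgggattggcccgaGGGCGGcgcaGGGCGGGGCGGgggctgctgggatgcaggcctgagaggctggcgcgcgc
PIK3CA: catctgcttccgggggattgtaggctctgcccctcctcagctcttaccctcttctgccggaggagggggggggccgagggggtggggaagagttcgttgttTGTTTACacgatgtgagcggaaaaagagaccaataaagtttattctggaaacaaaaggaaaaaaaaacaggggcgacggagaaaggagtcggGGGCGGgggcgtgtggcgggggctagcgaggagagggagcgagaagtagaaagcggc

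The windows of AKT1 and FOXO3, which moved in opposite directions, were both rich in GC, at 83.2% and 80.4%, whereas PIK3CD and PIK3CA had 60.4% and 57.6%, near the median of 58.0% over 35116 RefSeq windows. The GC box matched 7 times in the AKT1 window, 5 times in that of FOXO3, 3 times in that of PIK3CB and once in those of PIK3CD and PIK3CA, and some matches overlap by a base or more. Of all windows, 42.6% hold one. The FOXO element matched in the PIK3CA window, from base -149 to base -143 of the RefSeq start and thus inside the gene as GENCODE annotates it, and in none of the other 7 windows; 2.98% of all windows hold it. PIK3CA itself stood at 79.5 to 84.1 CPM with over-expression and 76.7 to 78.1 CPM in the controls, and was not called. Whether the match has any part in its level was not tested. The other motifs searched on both strands did not occur in the 8 windows. They were the cAMP response element TGACGTCA (in 1.65% of all windows), the GATA elements AGATAA (9.17%) and TGATAA (6.66%), the E-box CACGTG (6.34%), the ETS element CCGGAAGT (3.42%), the ATF4 composite element TGATGNAA (3.14%), the STAT element TTCNNNGAA (6.57%) and the NRF1 element (1.03%).

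Levels of different genes were compared per kilobase of annotated exon. In the controls PIK3CB was highest of the 8 at 37.5 ± 0.96 CPM per kb, followed by MTOR at 27.2 ± 0.94, FOXO3 at 12.2 ± 0.43, AKT2 at 11.7 ± 0.46, PIK3CD at 9.29 ± 0.56, AKT1 at 8.66 ± 0.28, PIK3CA at 8.15 ± 0.076 and PIK3R1 at 2.79 ± 0.17 (SD, n = 3 each). FOXO3 and AKT2 overlapped, and the other neighbours in this order did not. In the over-expression libraries AKT1 came below PIK3CA, at 7.45 ± 0.30 against 8.64 ± 0.24 CPM per kb. Per kilobase of the longest transcript AKT2 moved up to 33.0 ± 1.3 CPM per kb in the controls, just under MTOR at 38.0 ± 1.3, and AKT1 stayed above PIK3CA in both groups, so the places of AKT1 and AKT2 depend on the length used.

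Paralogue shares within a library do not depend on scaling between libraries. AKT2 made up 63.1%, 61.1% and 61.5% of the summed AKT1 and AKT2 counts per kb with over-expression, compared with 56.2%, 58.6% and 57.1% in control libraries 1, 2 and 3. The shares did not overlap, at a mean of 61.9% ± 1.0 against 57.3% ± 1.2 (SD, n = 3 each; exact two-sided permutation p = 0.1, the smallest that 3 against 3 allows). Among the 3 catalytic subunits, PIK3CB held 63.6% ± 0.94 against 68.2% ± 1.1, and PIK3CD held 20.7% ± 0.70 against 16.9% ± 0.97 (SD, n = 3 each; exact permutation p = 0.1 for each). PIK3CA held 15.7% ± 0.33 against 14.8% ± 0.30 (SD, n = 3 each; exact permutation p = 0.1). The groups were apart in all 4 shares, and the 3 catalytic shares sum to a whole, so they are not independent. The shares leave out PIK3CG, a further catalytic subunit, and so do not give the whole make-up of these enzymes. PIK3CG stood at 108.2 ± 2.2 CPM with over-expression and 115.1 ± 3.5 CPM in the controls (SD, n = 3 each), and was not called.

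**Figure D3:**
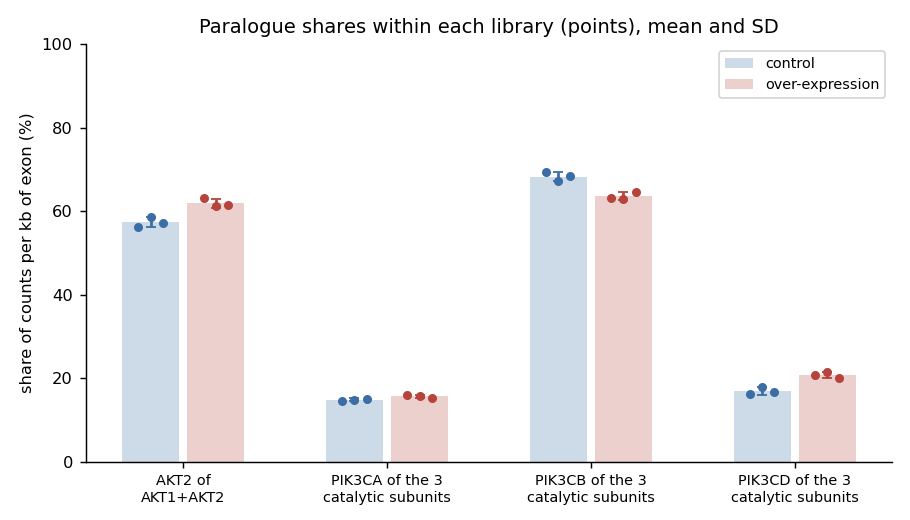
Share of AKT2 among AKT1 and AKT2, and of each catalytic subunit among PIK3CA, PIK3CB and PIK3CD (y axis, percent of counts per kb of exon), in each library; points are libraries, bars are means and error bars are SD. The AKT2 and PIK3CD shares are higher and the PIK3CB share lower in all 3 over-expression libraries.

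The genes around the core were read from 9 further lists of 101 genes, of which 92 were tested. Of these, 35 rose and 18 fell, beside 20.3% and 18.9% of all tested genes, or 57.6% called beside 39.3%. The lists were chosen with earlier results of these data known, so the gap between these shares is a description and was not tested. Values from here on are log2 fold changes with their SE, from the same edgeR fit. Among the other PI3K subunits, 1 of 6 tested genes rose and 1 fell, and the median was -0.085. PIK3R3, another class I regulatory subunit, rose by 0.58 ± 0.12, from 8.67 ± 0.94 to 13.0 ± 2.1 CPM (SD, n = 3 each). PIK3R4, the partner of the endosomal class III enzyme, fell by 0.32 ± 0.054. PIK3R2, a further class I regulatory subunit, had 9 and 13 counts, too few to test, and AC007192.1, annotated over it, had 0. PIK3R5 and PIK3R6 were at 0.

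Among the phosphatases that oppose the pathway, 2 of 9 rose and 2 fell, beside 20.3% and 18.9% of all tested genes. The median was 0.035. The AKT phosphatase PHLPP1 rose by 0.26 ± 0.051 and the inositol phosphatase INPP5K by 0.22 ± 0.085. INPP5D, also called SHIP1, fell by 0.47 ± 0.10, and its relative INPPL1 fell by 0.15 ± 0.033. In the library with strand counts 44.2% of INPP5D reads lay on the opposite strand. The INPP5K call was lost in DESeq2, in the GC and length correction, with library totals alone and without control library 3 or any of the over-expression libraries.

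Of the genes that activate AKT or are its substrates, 3 of 11 rose and 3 fell, with a median of -0.0018. Over all tested genes, 20.3% rose and 18.9% fell. TRIB3, a pseudokinase reported to bind AKT and an ATF4 target, rose by 0.71 ± 0.034. The kinase GSK3B, which AKT inhibits, rose by 0.13 ± 0.051, a call lost without over-expression library 2 or 3, without control library 2 or 3, and in DESeq2, among other alternatives. The Rab regulator TBC1D4, another AKT substrate, fell by 0.28 ± 0.060. The death-promoting BAD fell by 0.66 ± 0.20, on 101 against 156 counts, and the kinase CHUK fell by 0.14 ± 0.051. In the library with strand counts, BAD had 134 reads on its own strand, more than the 35 of its strand-ignored count. The BAD call was lost in DESeq2, and that of CHUK in DESeq2 and without over-expression library 1 or 2 or control library 2. PDPK1, which phosphorylates AKT at the membrane, did not pass (-0.090 ± 0.060), though it did after the GC and length correction (-0.17).

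Of the subunits of the mTOR complexes and their assembly factors, 4 of 8 fell and 1 rose, with a median of -0.078, beside 18.9% of all tested genes fallen and 20.3% risen. Against 1.5-fold, 0 of the 8 fell, beside 242 of all 18380 tested genes. MAPKAP1 and RICTOR, both of mTORC2, changed by -0.34 ± 0.047 and -0.11 ± 0.032, and RICTOR lost its call without over-expression library 1. The assembly factors TELO2 and TTI1, which help fold MTOR and related kinases, changed by -0.37 ± 0.048 and -0.21 ± 0.042. RPTOR, the scaffold of mTORC1, did not pass (-0.045 ± 0.043) except after the GC and length correction (-0.15), and MLST8, shared by both complexes, rose by 0.13 ± 0.053. The MLST8 call was lost under most alternatives, including the replacement of TMM by upper quartile factors, and the mTORC1 inhibitor DEPTOR had 17 and 4 counts, too few to test.

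Among the regulators upstream of mTORC1, 6 of 18 rose and 2 fell, beside 20.3% and 18.9% of all tested genes. The median was -0.049. SESN3, a stress-induced inhibitor and known FOXO target, rose by 1.54 ± 0.064, from 25.6 ± 1.9 to 74.3 ± 6.9 CPM (SD, n = 3 each). NPRL3, of the GATOR1 complex that restrains mTORC1, rose by 0.54 ± 0.038, and DDIT4, which acts through TSC2, by 0.29 ± 0.038. In the library with strand counts, DDIT4 had 7096 reads on its own strand, more than the 3108 of its strand-ignored count. TSC1, the partner that stabilises TSC2, rose by 0.30 ± 0.049, a value that became 0.18 after the GC and length correction. TSC2 did not pass (0.066 ± 0.041), and that correction turned it to -0.11. RHEB, the GTPase that switches mTORC1 on, fell by 0.16 ± 0.040, and the scaffold LAMTOR1 fell by 0.17 ± 0.065, whose call was lost in DESeq2 and without over-expression library 2 or 3 or control library 2.

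Of the mTORC1 substrates and effectors, 7 of 12 rose and 1 fell, beside 20.3% and 18.9% of all tested genes. The median was 0.089. EIF4EBP1, the translation repressor that mTORC1 inactivates and ATF4 induces, rose by 0.52 ± 0.042, from 82.1 ± 1.1 to 117.5 ± 3.7 CPM (SD, n = 3 each). The autophagy kinase ULK1 rose by 0.36 ± 0.043 and the ribosomal protein RPS6 by 0.26 ± 0.027. RPS6KB2, one of the kinases of RPS6, fell by 0.25 ± 0.061.

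Of the other FOXO factors, 2 of 3 rose, beside 20.3% of all tested genes. FOXO4 rose from 24.0 ± 3.0 to 34.7 ± 1.4 CPM and FOXO1 from 10.9 ± 0.74 to 15.0 ± 0.13 CPM (SD, n = 3 each), by 0.53 ± 0.075 and 0.46 ± 0.10. FOXO6 was under 1 CPM and did not pass. Of 20 genes known as FOXO targets in various cells, 11 rose and 4 fell, beside 20.3% and 18.9% of all tested genes. Their median was 0.22, beside -0.001 over all genes. Tested against 1.5-fold, 4 of the 20 rose and 1 fell, beside 447 and 242 of all 18380 tested genes (3.75% called in either direction). BCL6, a repressor that STAT5 and other factors also control, rose from 22.1 ± 1.4 to 98.2 ± 2.7 CPM, TXNIP, which curbs glucose uptake, from 430.4 ± 3.8 to 761 ± 5.4 CPM, and the antiproliferative BTG1 from 68.7 ± 3.8 to 113.0 ± 4.9 CPM (SD, n = 3 each). Their log2 fold changes were 2.15 ± 0.057, 0.82 ± 0.027 and 0.72 ± 0.045. The antioxidant enzyme CAT fell by 0.25 ± 0.038, and the coregulator CITED2 fell by 0.18 ± 0.048. TNFSF10, the death ligand TRAIL, fell by 2.23 ± 0.43, on 13 against 61 counts. The cell cycle inhibitor CDKN1B, a classical FOXO target, did not pass (0.035 ± 0.062).

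Adaptors that link receptors to PI3K rose in 3 of 6 cases and fell in 1, beside 20.3% and 18.9% of all tested genes. The median was 0.29. IRS1, which carries PI3K to the insulin and IGF1 receptors, rose from 2.85 ± 0.55 to 15.5 ± 2.2 CPM, its relative IRS2 from 18.9 ± 0.40 to 24.0 ± 2.6 CPM, and GAB2, which BCR-ABL1 uses to reach PI3K, from 253 ± 3.3 to 369 ± 11 CPM (SD, n = 3 each). The log2 fold changes were 2.44 ± 0.15, 0.34 ± 0.085 and 0.54 ± 0.030. GRB2, which joins GAB2 to BCR-ABL1, fell by 0.17 ± 0.036. IRS2 stands in both the adaptor and the FOXO target list. IGF1R itself rose by 0.69 ± 0.062. Whether any of these changes altered the activity of the pathway was not measured.

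**Figure D4:**
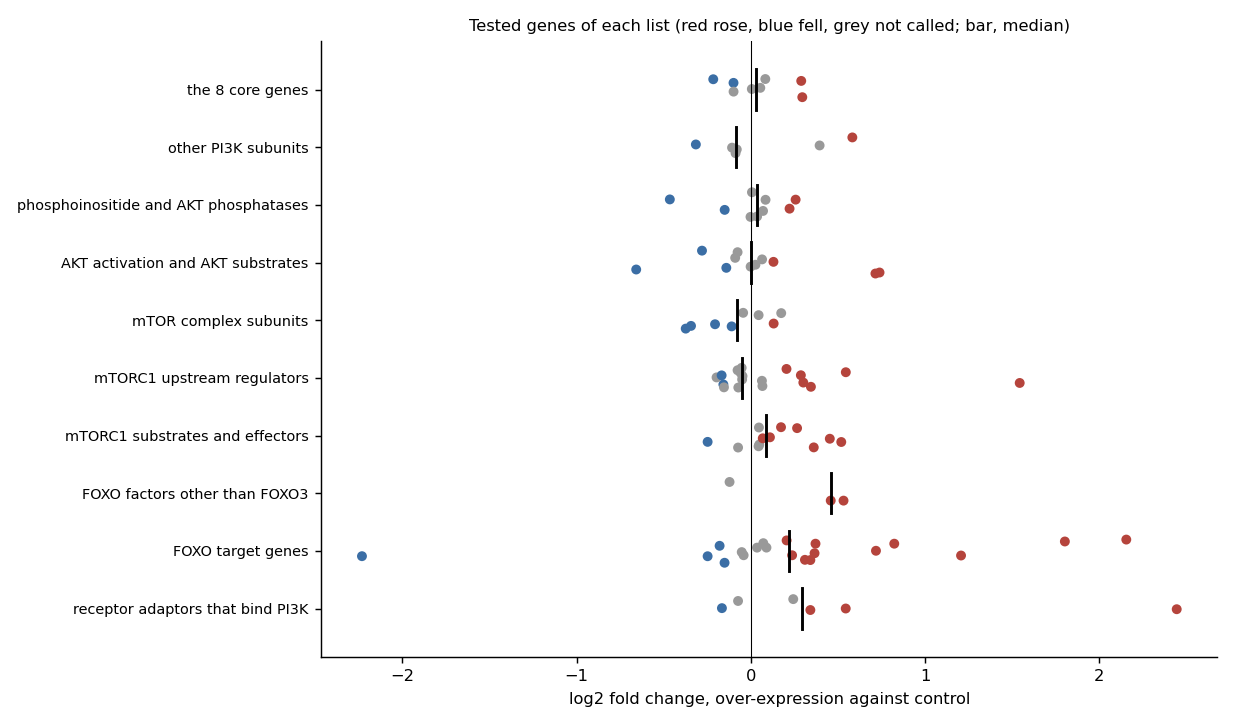
Log2 fold change of each tested gene (points; x axis, over-expression against control), by list; red points rose, blue points fell, grey points were not called, and black bars are list medians. The 8 core genes lie between -0.22 and 0.29, whereas single adaptors and FOXO targets such as IRS1 (2.44) and BCL6 (2.15) lie far outside that range.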

How the data were processed

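The 2 deposited tables hold unnormalized gene counts. Per the labels' protocols, libraries were prepared from total RNA with a TruSeq RNA kit. Per the submitters' processing notes, alignment used STAR and hg38 (GRCh38); the STAR version, annotation and counting step are unstated. Over-expression columns match the labels by number; the control columns are named vector and were taken as the control group without tying each to a label. The second table names no sample. Its strand-ignored column is identical to over-expression library 2 at all 58440 identifiers, and its strand columns served only to describe genes.

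Identifiers were named with GENCODE 29 (58320 matched); where a symbol had several, the one with most counts was used. Upstream sequences are from RefSeq. The main test was edgeR 4.0.16 in R 4.3.3 (filterByExpr, TMM, two-sided quasi-likelihood F-test, Benjamini-Hochberg over 18380 genes), with SE as the absolute log2 fold change over the square root of F. Alternatives used limma 3.58.1, DESeq2 1.42.0 and, for smooth GC and length offsets, mgcv 1.9.3. The edgeR step was tested on simulated data with 200 changed genes. It called 42% of the 1.2-fold changes and 66% of the 1.5-fold changes, and 7.05% of its calls were unchanged genes. The simulation held 200 changed genes among 18380, where edgeR called 7217 in the data, so these shares need not carry over. Libraries within a group differed by more than counting noise (chi-square per degree of freedom 1.36 to 2.31), so none was treated as a library deposited again; this does not show whether their spread is biological or technical.

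Members and lists were chosen with earlier results of these data known. Named are the 8 genes; per list, at most 3 genes that rose and 3 that fell, by p; 12 fixed genes; and, for FOXO3 and AKT1, the 3 genes most alike over the libraries. Outside that rule, KCNMB3, CLSTN1, PIK3CD-AS2, AL583722.2, FOXO3B, AC007192.1, PIK3CG, PIK3R5, PIK3R6, DEPTOR, FOXO6 and CDKN1B were chosen after their values were seen. Some of the fixed genes and 1 marker class are not reported here.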

Additional observations from a re-analysis of the deposited data

How the results depend on the processing

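Tested against 1.5-fold, edgeR called 689 of 18380 genes (3.75%), of which 447 rose and 242 fell. Of the core genes, 0 rose and 0 fell. Of the 92 tested genes of the other lists, 7 rose and 1 fell. In that fit the values of FOXO3 (0.29), PIK3CD (0.29), AKT1 (-0.22) and PIK3CB (-0.10) are by construction those of the main test. GC and length offsets turned AKT2 (-0.0894), MTOR (-0.0909) and TSC2 (-0.1145), so that 4 core genes fell; the cause was not tested. With library totals alone MTOR turned to -0.0293. Leaving out 1 library at a time, MTOR ran from -0.0208 to 0.0335, negative without over-expression library 1 or control library 1 or 2. PIK3CB ran from -0.1132 to -0.0799 and lost its call without control library 1, so that fallen core genes ran from 1 to 2. FOXO3, PIK3CD and AKT1 kept direction and call in all fits other than that against 1.5-fold, and the 4 paralogue shares kept their direction. DESeq2 called 4813 genes, against 7217 in edgeR. With the replicate number as a block (replicate block), 7077 genes were called. Deviations of same-numbered libraries correlated at -0.07, -0.0038 and -0.0069. No variation shared by number was seen, which cannot show whether same-numbered libraries were prepared together. PIK3R1, at about 30 CPM the lowest of the core, had the widest interval.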

Other observations

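Over the 6 libraries, the genes whose log2 CPM followed FOXO3 most closely were GTF2F1, CLEC2D and TMEM219 (Pearson r = 0.995, 0.994 and 0.994), and those closest to AKT1 were TPD52L2, GAB3 and STK26 (0.997, 0.997 and 0.996). These values are a description of 6 libraries in 2 groups. Of 11010 genes compared, 1273 exceeded r = 0.9 with FOXO3 and 1158 with AKT1, so closeness of this kind is common here. GAB3, an adaptor of the family of GAB2, fell by 0.39 ± 0.053 on the log2 scale (SE; edgeR), where GAB2 rose.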
